A study of Mus musculus with 6 samples.

Results

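The mitochondrial ribosome has its own set of proteins, and the transcripts of 77 of their genes were compared between hearts of mice with a Cenpf knockout and wild-type hearts. The genes were those whose symbol starts with Mrpl or Mrps followed by a digit, among probes annotated with exactly 1 gene symbol, and a gene with several probes was represented by the probe of highest mean over all hearts. They are 77 of the 19938 genes so named on the array, 48 of them Mrpl genes of the large subunit and 29 Mrps genes of the small subunit by name. A further probe was annotated with Mrpl53 and another gene together and was not used. Hearts came from 3 mice labelled as cenpf knock-out and from 3 wild-type mice, all 12 months old, with 1 array per heart. The sample titles name no treatment. Cenpf encodes a large kinetochore protein that binds microtubules. The sources used here do not give the strain, the sex, the deleted part of Cenpf or whether the knockout was restricted to a cell type.

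Mitochondrial ribosomes translate the few mRNAs of the mitochondrial genome, all of which encode subunits of the respiratory chain and ATP synthase. Their RNAs come from the mitochondrial genome, while all of their proteins are encoded in the nucleus, made in the cytoplasm and imported. The heart is rich in mitochondria, and inherited defects of several of these proteins cause cardiomyopathy in humans. Some members have bacterial homologues and form the conserved core, and others are specific to mitochondria.

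All values are log2 values as deposited, so a difference of 1 is a doubling, and differences are knockout minus wild-type. The levels of different probes are not compared with each other. Cenpf itself read 6.35, 6.10 and 6.68 in the knockout hearts, against 8.75, 8.54 and 8.04 in the wild-type hearts. It fell by 2.07 ± 0.21 (SE, limma adjusted p = 0.0286). The call was lost when any array other than wild-type replicate 3 was left out, with limma adjusted p from 0.0689 to 0.198. The 3 knockout hearts were all lower than the 3 wild-type hearts. This probe is a check of the labels if it covers deleted sequence, which is not known here. Background was taken as 6.35, a level that 95% of the 1210 probes for olfactory and vomeronasal receptors did not exceed in their mean. All 77 members had a mean above this level, between 7.55 and 12.77. Array medians over all probes lay between 6.92 and 6.97. The labels call the samples biological replicates and give no batch.

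Sequence before the start sites of members is shown because NRF1, GABP and YY1 are known regulators of nuclear genes for mitochondria. A promoter window of 300 bases, 250 before and 50 after the start, was found for 68 of the 77 genes in RefSeq (GRCm38.p6), with 74 windows in all. Of these, 33.8% held CCGGAAG, a core recognised by ETS factors such as GABP, on either strand, compared with 11.6% of all 21262 windows of protein-coding genes. The YY1 string AAGATGGCG was in 8 of the 74 windows, or 10.8%, compared with 1.83% of all. The NRF1 string GCGCATGCG was in 7, or 9.46%, compared with 2.35%. The E-box CACGTG was in 9.46%, compared with 7.84%. None of these strings contains another, and a match describes the letters only. Of the 7 genes with the NRF1 string 6 were of the large subunit, as were 42 of all 68 genes with a window. Matches in 3 of them follow with 10 bases on either side, 5′ to 3′ on the gene's strand and with the match in capitals. They lie at chr13:14613106-14613134 (minus strand) for Mrpl32, chr11:58171621-58171649 (plus strand) for Mrpl22 and chr16:84735351-84735379 (minus strand) for Mrpl39.
Mrpl32: tttgacccttGCGCATGCGcaagaggggc
Mrpl22: gcctcggactGCGCATGCGtatagtcagc
Mrpl39: aaggagaggcGCGCATGCGcccccgcgtg
Mrpl32 differed by -0.43, Mrpl22 by -0.34 and Mrpl39 by -0.028, and Mrpl10, which also holds the NRF1 string, by 0.039. The 7 genes with the NRF1 string had a median of -0.11 and 6 below 0. The 61 without it had a median of -0.085 and 48 below 0. The 25 genes with the ETS string had a median of -0.12 and 21 below 0, and the 43 without it had a median of -0.072 and 33 below 0.

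Several members stand head to head with a neighbour, so that promoter windows on opposite strands overlap. This held for 22 members. The 250 bases before the starts of Mrpl32 (chr13:14613038-14613287, minus strand), which faces the proteasome gene Psma2, and of Mrps11 (chr7:78782881-78783130, plus strand), which faces the large subunit gene Mrpl46, are shown because they stand between genes whose differences are compared. Capitals mark the NRF1 string, read on either strand and overlapping itself once, in Mrpl32 and the complement of the YY1 string in Mrps11.
Mrpl32: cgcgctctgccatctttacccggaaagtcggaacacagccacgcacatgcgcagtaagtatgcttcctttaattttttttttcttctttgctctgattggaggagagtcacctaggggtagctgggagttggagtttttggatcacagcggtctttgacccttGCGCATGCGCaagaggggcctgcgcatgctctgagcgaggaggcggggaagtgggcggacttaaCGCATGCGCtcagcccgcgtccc
Mrps11: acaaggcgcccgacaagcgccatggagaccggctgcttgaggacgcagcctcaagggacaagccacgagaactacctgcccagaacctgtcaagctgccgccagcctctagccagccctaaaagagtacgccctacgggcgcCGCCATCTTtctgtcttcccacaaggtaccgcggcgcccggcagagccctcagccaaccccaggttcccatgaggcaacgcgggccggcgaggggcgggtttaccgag
Mrpl32 differed by -0.43 ± 0.13 (SE) and Psma2 by 0.18 ± 0.11 (SE). Mrps11 differed by -0.41 ± 0.14 (SE) and Mrpl46 by -0.16 ± 0.11 (SE). Mrps12, which encodes a protein of the decoding centre, faces the mitochondrial seryl-tRNA synthetase gene Sars2, and they differed by 0.053 and 0.013. Of the 21 facing neighbours that were measured, Mrps11 and Mrpl46 counted as each other's, 14 differed in the same direction as the member.

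Most members read lower in the knockout hearts, by small amounts. Of the 77 genes, 61 had a fitted difference below 0, or 79.2%, where 52.1% of all 21789 probes did and 48.8% of the probes above the background level. The median over the members was -0.087, where the median over all probes was -0.0082 and that over probes above background 0.0052. Differences ranged from -0.52 for Mrpl47 to 0.30 for Mrpl28. In either direction, 36 of the 77 members differed by less than 0.1, where this held for 45.4% of all probes. No member passed an adjusted p under 0.05 (limma, lowest adjusted p = 0.401), where 0.0275% of all probes did. At an unadjusted p under 0.05, 7 members were lower and 1 was higher, or 9.09% and 1.30%, compared with 5.24% lower and 4.66% higher over all probes. With array medians subtracted these counts were 3 and 1, and the 3 lower members, or 3.90%, were no larger a share than the 3.99% of all probes that were lower (5.97% were higher). The groups did not overlap in 9 members that were lower and 4 that were higher, or 11.7% and 5.19%, compared with 7.47% and 7.33% of all probes. In 3 against 3 hearts the 95% interval of a member's difference reached ± 0.25 in the median, so most of the members' differences lay within their own interval around 0.

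**Figure D1:**
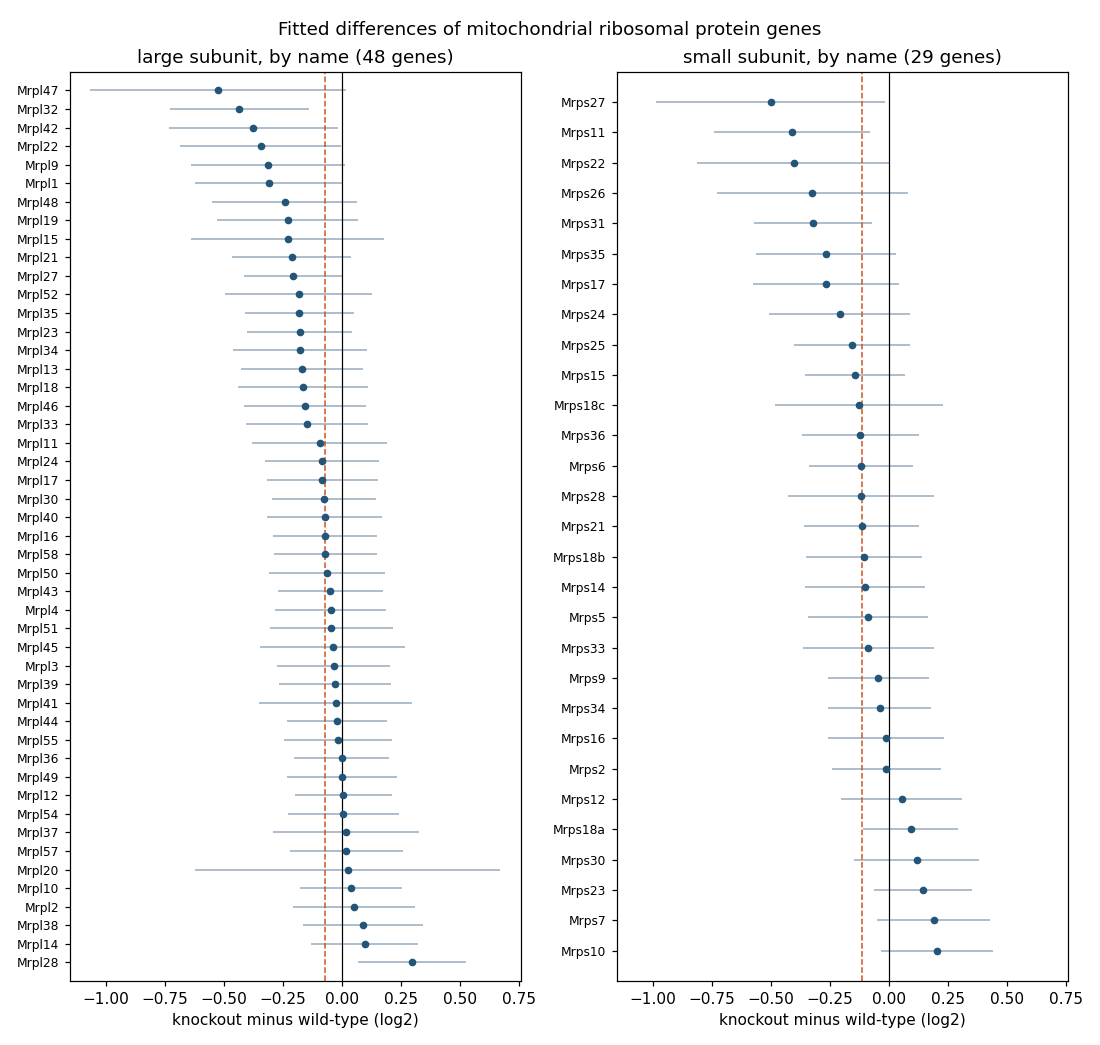
Fitted difference of each member, knockout minus wild-type, on the log2 scale, in the large subunit (left, 48 genes) and small subunit (right, 29 genes). Points are the limma estimates, bars their 95% intervals, and the dashed line the subunit's median, -0.072 for the large and -0.12 for the small subunit. Mrpl28 is the highest, at 0.30, and Mrpl47 the lowest, at -0.52.

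Most members were high in the same wild-type hearts, and the knockout hearts stood next to 1 of the wild-type hearts. In wild-type replicates 1, 2 and 3, 62, 60 and 14 members lay above their own mean over the 6 hearts. In knockout replicates 1, 2 and 3 these were 29, 13 and 33. With each gene centred on its mean over the 6 hearts, the members' median was -0.042, -0.10 and -0.013 in knockout replicates 1, 2 and 3, against 0.10, 0.092 and -0.062 in wild-type replicates 1, 2 and 3. Wild-type replicates 1 and 2 were high, and wild-type replicate 3 lay within the range of the knockout hearts. The highest of a gene's 6 values fell in wild-type replicate 1 for 29 members and in wild-type replicate 2 for 26, and only 2 members were highest in wild-type replicate 3. The lowest value fell in knockout replicate 2 for 33 members and in knockout replicate 1 for 21. Wild-type replicate 3 was the lowest wild-type value in 60 of 77 members, where this held for 38.9% of all probes. In 37 members wild-type replicates 1 and 2 both lay above every knockout value, where this held for 18.3% of all probes. Without wild-type replicate 3 the members' median was -0.14 and 63 were below 0. In that comparison 23 members, or 29.9%, were lower at an unadjusted p under 0.05, compared with 8.59% of all probes. A single member was lower in this way when wild-type replicate 1 was left out, compared with 4.19% of all probes, and a single member when wild-type replicate 2 was left out, compared with 3.45%.

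**Figure D2:**
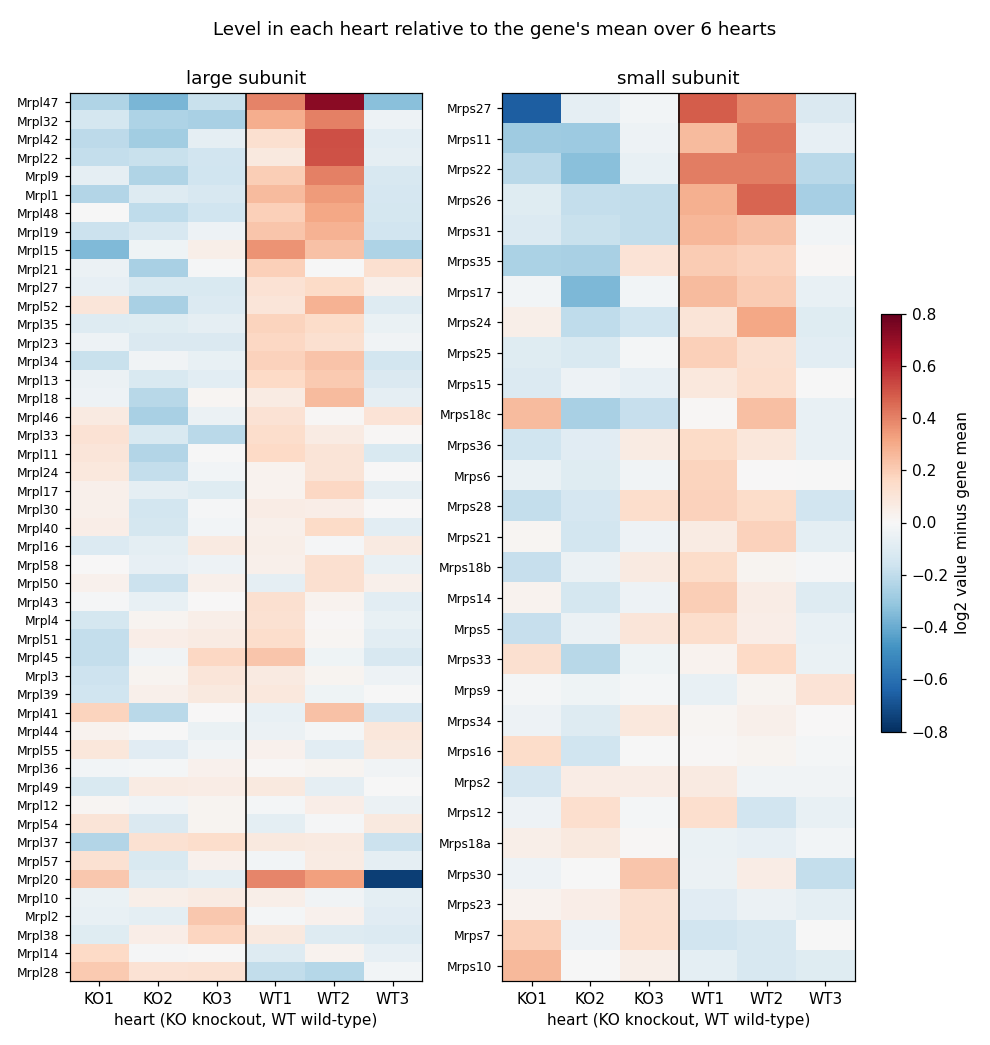
Level of each member (rows, ordered by difference) in each heart (columns, KO knockout and WT wild-type, numbered by replicate), as the log2 value minus the gene's mean over the 6 hearts, red above and blue below it. The upper rows are red in WT1 and WT2 and pale or blue in WT3 and the knockout hearts, and Mrpl20 stands out in WT3.

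The large and small subunits gave nearly the same picture. Of the large subunit genes 38 of 48 were below 0, or 79.2%, with a median of -0.072, and of the small subunit genes 23 of 29, or 79.3%, with a median of -0.12. Leaving out wild-type replicate 3 gave medians of -0.12 for the large and -0.18 for the small subunit. The large minus small difference of the medians was 0.044 with all hearts. As means the subunits were at -0.11 each, and the difference was 0.0081. Heart by heart, the large subunit's median was -0.043, -0.10 and -0.0092 in knockout replicates 1, 2 and 3, against 0.080, 0.086 and -0.070 in wild-type replicates 1, 2 and 3. The small subunit's was -0.042, -0.10 and -0.014 in the same knockout hearts, against 0.13, 0.092 and -0.061 in the same wild-type hearts. Large minus small was -0.0011, 0.0019 and 0.0047 in the knockout hearts, against -0.055, -0.0060 and -0.0089 in the wild-type hearts, so wild-type replicate 1 stood apart. Leaving out wild-type replicate 1 gave a difference of the medians of 0.0083, and leaving out knockout replicate 1 gave 0.0081. Leaving out wild-type replicate 2 gave 0.024. Subunits as placed in structures, where Mrps30 and Mrps18a belong to the large subunit and Mrps36 to the 2-oxoglutarate dehydrogenase complex, gave medians of -0.071 and -0.12. Among proteins placed in this way, those with bacterial homologues had medians of -0.12 (30 genes) in the large and -0.11 (16 genes) in the small subunit. Those specific to mitochondria had medians of -0.034 (20 genes) in the large and -0.21 (10 genes) in the small subunit, so the order of these classes was opposite in the subunits.

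Among large subunit genes that read lower, Mrpl32 had the smallest unadjusted p. It encodes a core protein whose maturation by the m-AAA protease is needed to build the ribosome, as known from yeast and mouse. Mrpl32 read 8.81, 8.70 and 8.69 in the knockout hearts, against 9.24, 9.35 and 8.91 in the wild-type hearts. Its groups did not overlap, and the wild-type heart nearest to the knockouts was replicate 3. The difference was -0.43 ± 0.13 (SE), or 0.740-fold (limma, unadjusted p = 0.00932, adjusted p = 0.401). Mrpl42, a mitochondria-specific protein, read 10.51, 10.45 and 10.65 in the knockout hearts, against 10.85, 11.24 and 10.64 in the wild-type hearts. Knockout replicate 3 lay just above wild-type replicate 3, and the difference was -0.37 ± 0.16 (SE), or -0.21 without wild-type replicate 2. Mrpl22, whose bacterial homologue lines the tunnel through which the new protein leaves, read 8.44, 8.45 and 8.47 in the knockout hearts, against 8.70, 9.13 and 8.55 in the wild-type hearts. The groups did not overlap, the 3 knockout values were close together, and wild-type replicate 2 was far above the others. The difference was -0.34 ± 0.15 (SE, limma adjusted p = 0.502), and -0.18 without wild-type replicate 2. Mrpl1, of the mobile stalk beside the site where tRNAs leave, differed by -0.31 ± 0.14 (SE) with groups that overlapped at wild-type replicate 3.

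Mrpl47, chosen after its values were seen, had the lowest difference of all members, and its size moved with the wild-type hearts included. It read 8.45, 8.33 and 8.51 in the knockout hearts, against 9.09, 9.41 and 8.36 in the wild-type hearts. Wild-type replicate 3 lay among the knockout hearts. The difference was -0.52 ± 0.24 (SE, limma adjusted p = 0.516) with all hearts. It was -0.29 without wild-type replicate 2 and -0.31 as the mean of its probes. It was -0.82 without wild-type replicate 3 (limma adjusted p = 0.0419), where it was the only member called, compared with 1.34% of all probes called in that comparison, 0.569% lower and 0.776% higher. Over the other alternatives its limma adjusted p ran from 0.175 with array weights to 0.863 without wild-type replicate 2. Its other probe differed by -0.091 ± 0.14 (SE), so the probes did not give the same size. Mrpl20, also chosen after its values were seen, read 9.91, 9.60 and 9.62 in the knockout hearts, against 10.09, 10.02 and 8.94 in the wild-type hearts. The value of wild-type replicate 3 was below all others by a wide margin, and the difference was 0.025 ± 0.28 (SE).

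In the small subunit the genes with the smallest unadjusted p also read lower. Mrps31, a mitochondria-specific protein, read 9.20, 9.13 and 9.11 in the knockout hearts, against 9.57, 9.54 and 9.29 in the wild-type hearts. The groups did not overlap, and the difference was -0.32 ± 0.11 (SE, limma unadjusted p = 0.0178, adjusted p = 0.454). Mrps11, whose bacterial homologue sits on the platform of the small subunit, read 8.90, 8.89 and 9.14 in the knockout hearts, against 9.43, 9.61 and 9.12 in the wild-type hearts. Knockout replicate 3 and wild-type replicate 3 were nearly equal. Mrps27, which belongs to the pentatricopeptide repeat proteins, read 8.47, 9.06 and 9.11 in the knockout hearts, against 9.62, 9.52 and 9.01 in the wild-type hearts. Its difference was -0.50 ± 0.21 (SE, limma adjusted p = 0.500), with knockout replicate 1 far below the rest, and -0.30 without that heart. Mrps22, in which variants cause mitochondrial disease with cardiomyopathy in humans, read 9.15, 9.03 and 9.31 in the knockout hearts, against 9.78, 9.77 and 9.15 in the wild-type hearts. The groups overlapped at wild-type replicate 3, and the difference was -0.40 ± 0.18 (SE, limma adjusted p = 0.508), or -0.61 without that heart. Mrps35 and Mrps17 differed by -0.27 ± 0.13 (SE) each, and the groups of both overlapped. Mrps17 was at -0.15 without knockout replicate 2.

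**Figure D3:**
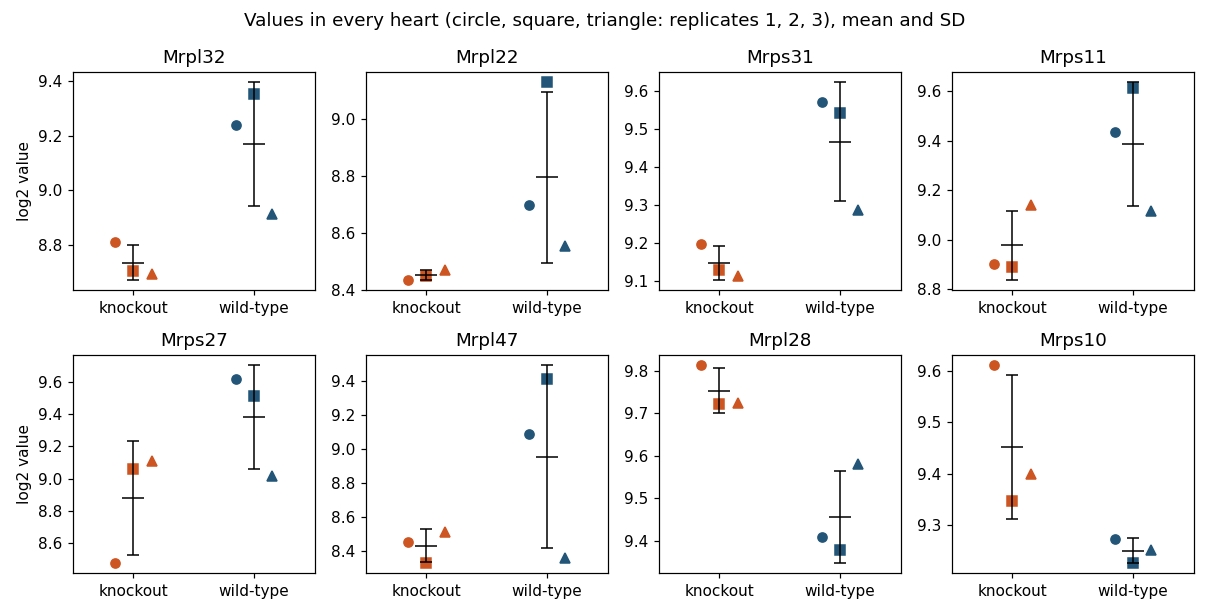
Log2 values of 8 members in every heart, knockout left and wild-type right of each panel, with replicates 1, 2 and 3 as circle, square and triangle. Black bars give the mean and SD (n = 3 each). In the first 6 panels the wild-type triangle, replicate 3, lies nearest to or among the knockout values, and in Mrpl28 and Mrps10 the knockout values lie above.

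A smaller set of members read higher in the knockout hearts. Mrpl28, a core protein of the large subunit, read 9.81, 9.72 and 9.72 in the knockout hearts, against 9.41, 9.38 and 9.58 in the wild-type hearts. The groups did not overlap, and the difference was 0.30 ± 0.099 (SE), or 1.23-fold (limma, unadjusted p = 0.0166, adjusted p = 0.452). Mrps10 read 9.61, 9.35 and 9.40 in the knockout hearts, against 9.27, 9.23 and 9.25 in the wild-type hearts. Here the wild-type values were close together and knockout replicate 1 was the highest, and the difference was 0.20 ± 0.10 (SE, limma adjusted p = 0.555), or 0.12 without that heart. Mrps7, at 0.19 ± 0.10 (SE), had groups that overlapped. Mrps23, at 0.14 ± 0.090 (SE), and Mrps18a, at 0.092 ± 0.088 (SE), had groups that did not overlap. Mrps30, the other protein found in the large subunit in spite of its name, differed by 0.12 ± 0.12 (SE). Leaving out knockout replicate 3 put Mrps30 at 0.035. Leaving out a wild-type heart put it at 0.18 for replicate 2 and at 0.052 for replicate 3. Mrpl14 differed by 0.096, or 0.041 without knockout replicate 1. Mrpl38 differed by 0.088 and was at 0.023 when knockout replicate 3 was left out and at 0.16 when knockout replicate 1 was.

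Members taken for their known roles ranged from -0.40 for Mrps22 to 0.19 for Mrps7, both described above. Mrpl12, which binds the mitochondrial RNA polymerase and forms part of the factor-binding stalk, read 10.61, 10.57 and 10.62 in the knockout hearts, against 10.58, 10.65 and 10.55 in the wild-type hearts. The groups lay on top of each other, with a difference of 0.0049 and a 95% interval from -0.20 to 0.21. Mrpl3 and Mrpl44, in which variants cause cardiomyopathy in humans, differed by -0.034 (95% interval -0.27 to 0.20) and -0.020 (95% interval -0.23 to 0.19). Mrps2, Mrps16 and Mrps34, also mutated in human mitochondrial disease, differed by -0.011, -0.012 and -0.040, with 95% intervals of -0.24 to 0.22, -0.26 to 0.23 and -0.26 to 0.18. Mrps36, the subunit of the 2-oxoglutarate dehydrogenase complex, differed by -0.12 ± 0.11 (SE). It was at -0.18 when knockout replicate 3 was left out and at -0.073 when knockout replicate 1 was.

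For 5 members the probe of highest mean lies, in probe order, among probes of other chromosomes than the gene's own. These were Mrpl27, Mrpl41, Mrpl48, Mrpl51 and Mrps33, and such a probe may read a near-identical copy elsewhere in the genome. Mrpl27, whose bacterial homologue reaches into the peptidyl transferase centre, differed by -0.21 ± 0.090 (SE, limma unadjusted p = 0.0487) with groups that did not overlap. The Mrpl27 probe that lies among neighbours of its own chromosome read 8.67, 8.47 and 8.30 in the knockout hearts, against 8.42, 8.85 and 8.60 in the wild-type hearts. Those groups overlapped, with a difference of -0.14 ± 0.14 (SE). Without the 5 genes, 56 of the 72 others were below 0 and their median was -0.087. In each of the 8 genes with 2 probes both differed in the same direction.

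Other genes of the mitochondrial translation system are given by role. Of 26 measured genes for assembly and rRNA modification, 17 were below 0, with a median of -0.035. At an unadjusted p under 0.05 (limma), 3 of them, or 11.5%, were lower, compared with 5.24% of all probes. In 8 of the 26, or 30.8%, the groups did not overlap and the knockout hearts were lower, where this held for 7.47% of all probes. The assembly list was not alone in this. It also held for 5 of 18 genes for mitochondrial transcription and RNA processing, or 27.8%, and for 7 of 35 complex I subunit genes. Higher without overlap were 0, 1 and 2 genes of these lists, in the same order. The median of the assembly list was -0.10 without wild-type replicate 3. Mterf3, needed for ribosome assembly and known in mouse heart to restrain mitochondrial transcription, read 9.11, 9.15 and 9.20 in the knockout hearts, against 9.53, 9.42 and 9.26 in the wild-type hearts, with a difference of -0.25 ± 0.10 (SE) and no overlap. The rRNA and tRNA methylase gene Trmt61b differed by -0.24 but lay below the background level in both groups. Trmt61b is counted among the 3 and among the 8 lower assembly genes above. Among 15 translation factors 7 were below 0, and the median was 0.062, or -0.0091 without knockout replicate 2. Of these factors 1 was lower without overlap and 3 were higher without overlap. The Lrpprc protein, which keeps mitochondrial mRNAs stable, had transcripts at 10.60, 11.05 and 10.95 in the knockout hearts, against 10.54, 10.31 and 10.39 in the wild-type hearts. Lrpprc differed by 0.45 ± 0.14 (SE, limma unadjusted p = 0.0105, adjusted p = 0.408), and the groups did not overlap. The elongation factor gene Gfm1 differed by 0.24 ± 0.13 (SE).

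Of 19 mitochondrial aminoacyl-tRNA synthetase genes 7 were below 0, with a median of 0.013. Without wild-type replicate 3 the median of these synthetase genes was -0.013 and 11 were below 0, and it was also below 0 without knockout replicate 2 or 3. Rars2 and Hars2, the arginyl and histidyl enzymes, had the smallest p and differed by -0.25 and -0.20, both without overlap. They were the only 2 of the 19 lower without overlap, or 10.5%, compared with 7.47% of all probes. Of 18 genes for mitochondrial transcription and RNA processing 10 were below 0, with a median of -0.036, which ran from -0.10 without wild-type replicate 3 to 0.022 without wild-type replicate 1. Pnpt1, an RNA-degrading enzyme, differed by -0.33 ± 0.13 (SE) without overlap and Ssbp1, the single-stranded DNA binding protein, by -0.30 ± 0.13 (SE) with overlap. Whether a probe lies among probes of its gene's own chromosome was examined for the members only, not for Ssbp1 or other listed genes. Of 5 measured ribosome proteins that bear other names, 4 were below 0, with a median of -0.025, among them Chchd1 at -0.26 and Gadd45gip1 at -0.22. Their median was 0.031 without knockout replicate 1. No gene of these lists passed an adjusted p under 0.05 (limma). None of the 15 transcripts of the mitochondrial genome sought was named on a probe, so the RNAs these ribosomes contain and translate were not analysed here.

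Other gene groups and cell type markers are set beside the members by heart. The 54 cytoplasmic ribosomal protein genes had 48 below 0 and a median of -0.13, and 35 complex I subunit genes had 24 below 0 and a median of -0.069. The cytoplasmic genes stood at 0.088, -0.18 and -0.12 in knockout replicates 1, 2 and 3, against 0.061, 0.16 and -0.0060 in wild-type replicates 1, 2 and 3. Knockout replicate 1 was thus high for the cytoplasmic and not for the mitochondrial ribosome. Complex I stood at -0.017, -0.052 and -0.025 in the knockout hearts, against 0.065, 0.063 and -0.018 in the wild-type hearts, with wild-type replicates 1 and 2 again the highest. These differences between lists were not tested.

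Adipocyte markers ran in a similar order. Their median was -0.077, -0.25 and -0.11 in knockout replicates 1, 2 and 3, against 0.40, 0.24 and -0.18 in wild-type replicates 1, 2 and 3. All 6 of 6 were below 0, none with an adjusted p under 0.05 (limma). Without knockout replicate 2, or without wild-type replicate 1, 5 of the 6 were below 0. Fabp4, at 12.12 in knockout and 12.15 in wild-type hearts, differed by only -0.035. The mean level of the 6 markers ran from 7.39 to 7.53 in the knockout hearts and from 7.47 to 8.14 in the wild-type hearts. Over all hearts the defining markers Lep and Adipoq did not pass the background level, Lep averaging 5.99 in knockout and 6.20 in wild-type hearts and Adipoq 5.92 in knockout and 6.59 in wild-type hearts. Fibroblast markers were below 0 in 7 of 8, with mean levels from 9.76 to 10.45 in the knockout hearts and from 9.88 to 10.38 in the wild-type hearts, and none below the background level. Both measured erythroid genes of the 5 sought, Slc4a1 and Alas2, were higher without overlap, by 0.54 and 0.88. Their mean level ran from 9.24 to 9.46 in the knockout hearts and from 8.31 to 8.92 in the wild-type hearts, with wild-type replicate 3 nearest to the knockout hearts. Endothelial markers were below 0 in 2 of 8, with mean levels from 10.27 to 10.42 in the knockout hearts and from 10.16 to 10.26 in the wild-type hearts. Among them Cldn5 differed by 0.62 and Kdr by 0.43, both without overlap. Emcn differed by -0.27 with overlap, and Pecam1 (-0.027), Tek (0.018) and Vwf (0.033) were near 0. Without knockout replicate 1, or without wild-type replicate 3, 4 of the 8 endothelial markers were below 0. Smooth muscle markers were below 0 in 3 of 5, with mean levels from 8.49 to 8.67 in the knockout hearts and from 8.52 to 9.11 in the wild-type hearts. Among them Acta2 read 11.07, 10.66 and 11.20 in the knockout hearts, against 12.96, 12.76 and 11.07 in the wild-type hearts. For Acta2, wild-type replicate 3 again lay with the knockout hearts. Myh11 went the other way, higher by 0.32 without overlap. The other smooth muscle markers differed by -0.18 (Tagln), -0.022 (Cnn1) and 0.044 (Smtn), all with overlap. Macrophage markers were below 0 in 4 of 8, with mean levels from 9.36 to 10.12 in the knockout hearts and from 9.36 to 9.86 in the wild-type hearts. These markers had no adjusted p under 0.05 (limma), and single marker genes in these sentences were chosen after their values were seen. The part of the cell types in the members' difference was not tested. Ventricular cardiomyocyte markers had mean levels from 13.47 to 13.62 in the knockout hearts and from 13.49 to 13.56 in the wild-type hearts, and 3 of 8 were below 0. In whole hearts, fewer cells of a type and less RNA per cell cannot be told apart.

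**Figure D4:**
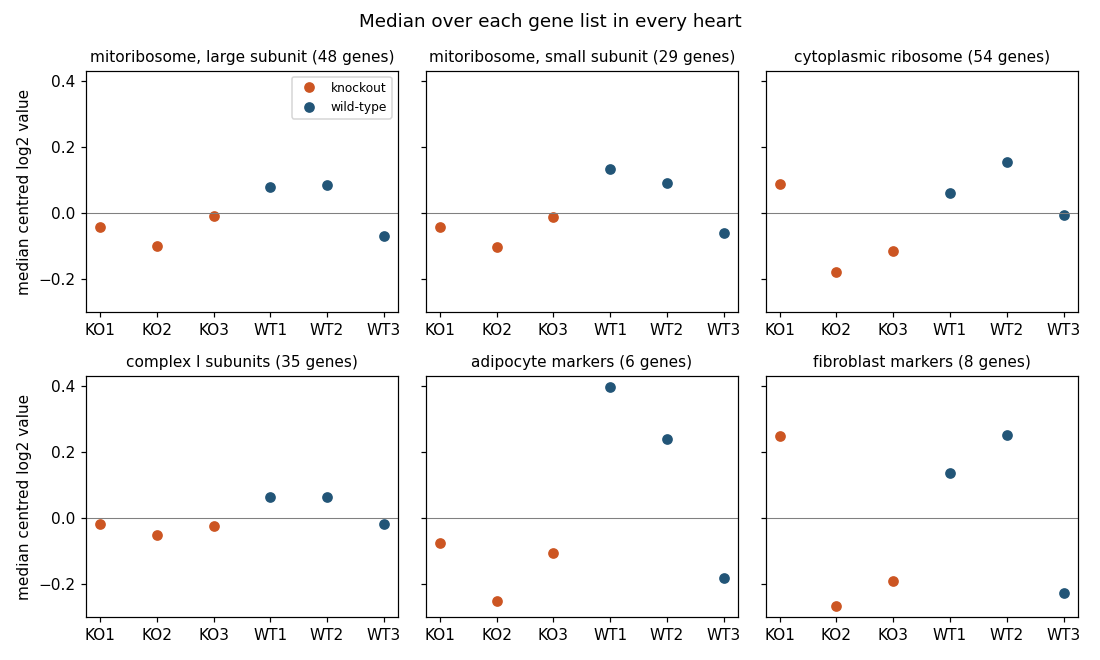
Median of the centred log2 values (each gene minus its mean over the 6 hearts) over 6 gene lists in every heart, knockout hearts (KO1 to KO3) left of wild-type hearts (WT1 to WT3). In both mitochondrial ribosome panels WT1 and WT2 lie above 0 and WT3 lies with the knockout hearts, and the adipocyte panel has a similar order with a wider range.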

How the data were processed

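Hearts of 3 Cenpf knockout and 3 wild-type mice were profiled on Affymetrix mouse gene arrays. The authors' deposited values are on the log2 scale and were made with RMA and Partek 6.6 per the submitters' processing notes and the sources used here give no settings, annotation or build. Of 35556 probes, 21789 had exactly 1 gene symbol in the platform annotation, 1621 had several and 12146 were unnamed here. No value was filtered or rescaled. Precision is limited by there being 3 arrays a group. All 21789 probes were fitted with limma 3.58.1 (lmFit and eBayes, R 4.3.3), two-sided, with Benjamini-Hochberg adjustment over all of them, and the script was tested on simulated data. List medians are descriptions without a test.

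Members and lists were chosen with earlier results of these data known. Members named were, per subunit, the 6 with the smallest p, the 3 with the largest positive difference and those with known roles, plus the 2 with the smallest p of each other pathway list. Alternatives were 3 normalizations, a filter on dim probes, variance models, array weights, a replicate block, the mean of a gene's probes and each array left out. P-values set a difference against the spread between these biological replicates, which limma moderates with the spread over all probes. Same-numbered hearts deviated from their group means with correlations of -0.11, -0.16 and -0.0031. Between hearts of unlike number the correlations ran from -0.020 to 0.14. So few values cannot exclude a pairing, and the main fit took the hearts as unpaired.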

Additional observations from a re-analysis of the deposited data

How the results depend on the processing

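Members with a difference below 0 numbered 55 to 64, and the subunit medians stayed below 0, in each alternative run. The members' median ranged from -0.14 to -0.056. Among all probes 33 were called with array weights, 22 with a trend and robust variance model, 11 with the replicate block and 1 to 293 without 1 array, 293 being without wild-type replicate 3. Members called numbered 0 to 1 without 1 array and 0 in the other alternatives. Members lower at an unadjusted p under 0.05 were 3 with array medians subtracted (3.90%, with 3.99% of all probes), 19 with array weights (24.7%, with 9.51%), 11 with cyclic loess (14.3%, with 4.45%), 13 with the trend and robust model (16.9%, with 5.34%) and 1 to 23 without 1 array (1.30% to 29.9%, with 3.45% to 8.59%), and those higher 0 to 1. The replicate block changed no member's call. Large minus small was 0.0081 as means and 0.0081 to 0.064 without 1 array. The cause of these changes was not tested. Cenpf lost its call without each array other than wild-type replicate 3, with differences from -2.22 to -1.92 and adjusted p from 0.0689 to 0.198 (limma). Members near 0 changed sign. With array medians subtracted Mrpl44 was at 0.0018, Mrps16 at 0.010 and Mrps2 at 0.010, and with array weights Mrps2 was at 0.012. Without 1 array Mrpl12 ranged from -0.018 to 0.033, Mrpl3 from -0.090 to 0.040, Mrpl44 from -0.047 to 0.020, Mrps2 from -0.045 to 0.054, Mrps16 from -0.088 to 0.067 and Mrps34 from -0.092 to 0.0018. Leaving out arrays for the other gene lists, and restricting members to probes among neighbours of their own chromosome, were chosen after seeing the data. The restriction left the large and small subunit medians at -0.072 and -0.12.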

Other observations

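More members on chromosome 17 were above 0 than below, a pattern picked after the values of all chromosomes were seen and not tested. Of the 8 members there, 5 were above 0 in the knockout hearts, namely Mrpl28, Mrps10, Mrpl14, Mrps18a and Mrpl2, with a median of 0.071. Of the 69 members elsewhere 11 were above 0, with a median of -0.095. Of the 4 members higher without overlap, 3 were on chromosome 17. Of all probes named to genes of that chromosome 10.4% were higher without overlap, compared with 7.33% of all probes. Of those above the background level 12.4% were higher without overlap, compared with 8.95% of all probes above that level. The share lower without overlap was also larger there, at 9.19% of the chromosome's probes above the background level, compared with 7.13% of all such probes. Over all 1022 probes named to genes of that chromosome, 50.8% were below 0 and the median was -0.0035. Over the 751 of them above the background level, 47.7% were below 0. On chromosome 11, which holds the most members, 5 of 11 were above 0. So were 2 of 4 members on chromosome 4 and 1 of 2 on chromosome 10.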
